A study of Mus musculus with 24 samples.

Results

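The levels of 10 genes that mark tissue macrophages, the complement C1q complex and antigen presentation were measured in mouse plantaris muscle: Csf1r, Cd68, Cd163, Mrc1, Lyz2, C1qa, C1qb, C1qc, Cd74 and H2-Aa. They were chosen by name, and they are 10 of the 47643 genes in the count table. RNA came from whole flash-frozen plantaris, a fast muscle of the calf, of wild-type C57BL/6 mice. The 11 air samples came from mice kept in normal air and the 13 smoke samples from mice under tobacco smoke exposure, which lasted 16 weeks, and the labels name no other genotype or agent in either group. Libraries were made with a kit that reads the 3′ end of each transcript (QuantSeq 3′ FWD). The labels do not say in so many words that every sample is a separate mouse, so p-values measure the spread between these samples, which may in part be technical.

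Macrophages are resident in the connective tissue between muscle fibres, where they clear debris and dying cells. The C1q complex, built from the A, B and C chains, opens the classical complement pathway by binding to antibody and to cell debris, and tissue macrophages are a main source of it. MHC class II molecules display peptides to helper T cells. They are made by macrophages, dendritic cells and B cells, and the invariant chain, encoded by Cd74, guides them to the compartment where peptides are loaded.

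Library totals ranged from 2515697 to 4528845 counts, so that 3 counts equal 0.662 to 1.19 CPM (counts per 1e6 counts of the library). This range and the level of the filter on low counts use the unadjusted totals. All other CPM use totals adjusted by edgeR's TMM method. All 10 myofibre markers passed the filter on low counts, and none of them was called. The median correlation of a library with the others ranged from 0.951, for air replicate 11, to 0.972. In the headers all 13 smoke samples have lower sheet numbers than all 11 air samples, so the order of the sheet and the group cannot be told apart. No molecular identifiers are stated, and the counting errors given here cover counting error only.

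Of the 10 genes only Cd74, which serves MHC class II presentation, was called between air and smoke, that is, differed at an adjusted p under 0.05. Cd74 fell by 39.7% in mean level, from 5.21 ± 1.67 CPM in air (SD, n = 11) to 3.14 ± 0.89 CPM in smoke (SD, n = 13). That call was lost when any 1 of 3 samples was left out and in several other settings, while its sign was kept in every fit run. H2-Aa had a mean 36.3% lower, with an adjusted p of 0.119 in edgeR's quasi-likelihood test, and was not called. Csf1r, Lyz2, C1qa and Mrc1 had means within 3% of each other between the groups. In whole muscle, fewer cells of a type and less RNA per cell cannot be told apart.

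Of the 10 genes, 9 passed edgeR's filter on low counts, which asked for 2.84 CPM in about as many samples as the smaller group holds, and 1, Cd68, did not. Of these 9, 1 gene, Cd74, was called at an adjusted p under 0.05 (edgeR's quasi-likelihood test, Benjamini-Hochberg adjustment over 10159 genes), and it was lower in smoke. Over all genes tested, 195, or 1.92%, were called, 121 of them lower (1.19%) and 74 higher (0.728%). At an unadjusted p under 0.05 stood 2 of the 9 genes, Cd74 and H2-Aa, beside 1575 of all genes (15.5%). The log2 fold change of smoke against air was negative for 9 of 9 genes, with a median of -0.17, beside a median of 0.0066 and 48.4% negative values over all genes tested. Of these signs 4, those of Csf1r, Mrc1, C1qa and Lyz2, turned positive, at 0.12 or less except Mrc1 at 0.16, when the level of the blood gene Hbb-bs was added to the fit.

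**Figure D1:**
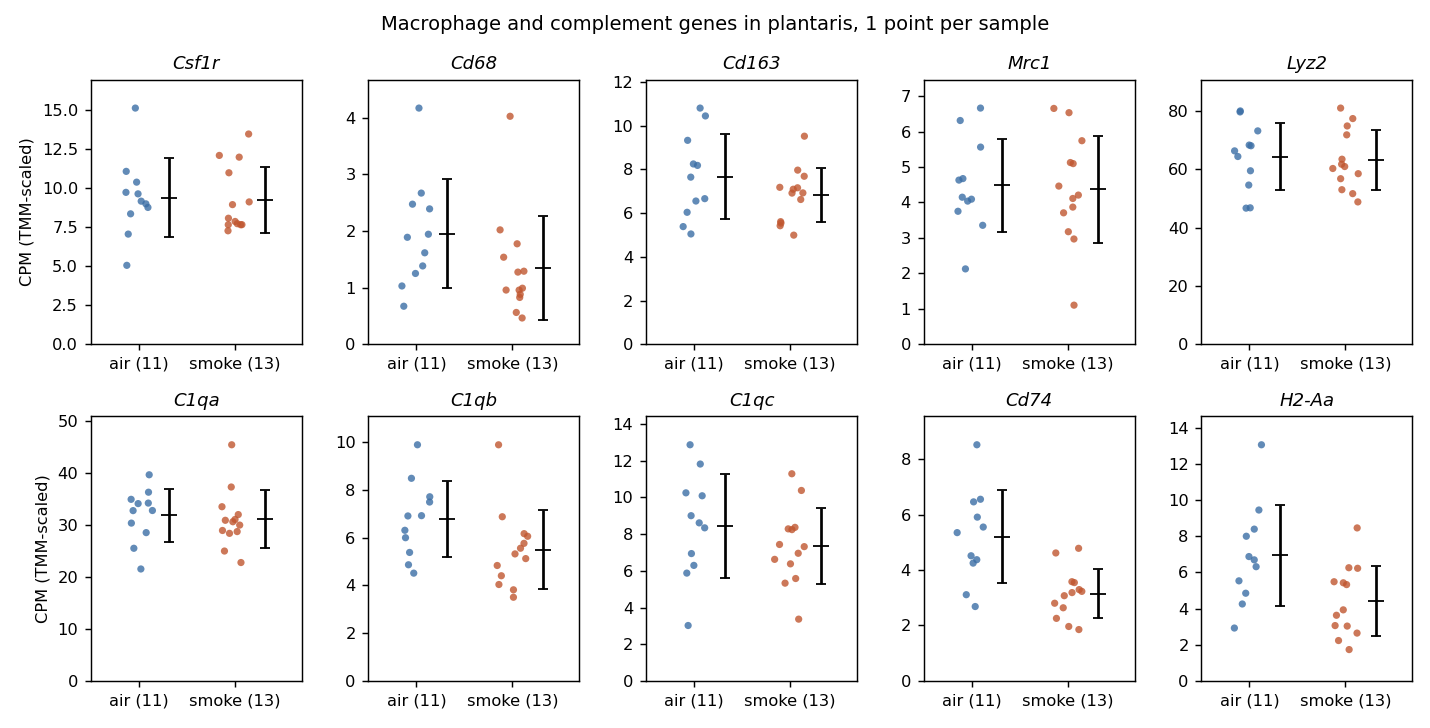
Level of each gene in CPM in every air sample (11 points) and smoke sample (13 points), with bars for the group mean ± SD. For Cd74 the smoke points end at 4.79 CPM, and 6 air points lie above them, while for Csf1r, Lyz2 and C1qa the groups cover nearly the same range.

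The levels spanned a wide range. Each library molecule of this kit is read once near the end of its transcript, so CPM were compared between genes without division by length, and the completeness of each annotated 3′ end still enters such a comparison. Lyz2 had the highest mean CPM and C1qa the next in both groups, and Lyz2 exceeded C1qa, and C1qa exceeded Csf1r, in 11 of 11 air and 13 of 13 smoke samples. Below these the order was not fixed by the spread: Csf1r exceeded C1qc in 6 of 11 air and 10 of 13 smoke samples, and C1qc exceeded Cd163 in 7 of 11 and 8 of 13. Cd68 was lowest, and Mrc1, its neighbour in air, was above it in 10 of 11 samples.

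Csf1r encodes the receptor for CSF1 and IL-34, on which most macrophages depend. It lies on chromosome 18 (GRCm38, 61100598 to 61132149, plus strand), and Hmgxb3 overlaps it from the opposite strand. Its level in air was 5.05 CPM at the lowest, 9.15 at the median and 15.1 at the highest. In smoke the values were 7.26, 8.06 and 13.5 CPM. The ranges overlapped almost completely. The log2 fold change was -0.02 with a standard error (SE) of 0.14 and a 95% interval from -0.31 to 0.26 (edgeR, adjusted p = 0.962).

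Cd163 encodes the scavenger receptor for haemoglobin bound to haptoglobin, and Mrc1 the mannose receptor, both used as markers of resident macrophages. Cd163 (chromosome 6, 124304656 to 124330527, plus strand) had 5.05, 7.65 and 10.8 CPM as lowest, median and highest air values. The smoke values were 4.99, 6.93 and 9.52 CPM, with 10 of 13 samples below the air mean. The groups overlapped, and the log2 fold change was -0.17 (SE 0.14, 95% interval -0.46 to 0.11, edgeR adjusted p = 0.61). Mrc1 (chromosome 2, 14229392 to 14332057, plus strand) ranged from 2.13 to 6.66 CPM in air, with a median of 4.15. It ranged from 1.10 to 6.65 CPM in smoke, with a median of 4.21. The lowest value was in smoke replicate 3, and otherwise the groups covered the same levels, and the log2 fold change came to -0.05 (SE of 0.20, adjusted p = 0.948 in edgeR).

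Cd68 encodes a lysosomal membrane protein used as a general macrophage marker. On chromosome 11 (69664213 to 69666153, minus strand), it had only 2 to 12 counts per air sample and 2 to 11 per smoke sample, and it exceeded the filter's 2.84 CPM in 2 samples. Its air values were 0.671, 1.89 and 4.17 CPM as lowest, median and highest, and its smoke values 0.463, 0.990 and 4.03 CPM. Means were 1.95 and 1.35 CPM, and 11 of 13 smoke samples lay below the air mean. The difference of -0.603 CPM gave p = 0.138 in a two-sided permutation test with 100000 resamples. Smoke replicate 10, at 4.03 CPM, and air replicate 2, at 4.17 CPM, each lay far above the rest of their group. Without the former the difference was -0.826 CPM (permutation p = 0.0106), and without the latter -0.381 CPM (permutation p = 0.292).

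Lyz2 encodes lysozyme M, a bacterial cell wall hydrolase of macrophages and neutrophils. It lies on chromosome 10 (117277331 to 117282321, minus strand). The levels were 46.6, 66.3 and 80.0 CPM as lowest, median and highest in air and 48.8, 60.9 and 80.9 CPM in smoke. The groups shared nearly 1 range. The log2 fold change was -0.03 (SE 0.09, 95% interval -0.21 to 0.16, edgeR adjusted p = 0.934). The near-identical Lyz1 held 125 counts in air and 119 in smoke, against 2478 and 2823 for Lyz2, and how reads were split between the pair is not given in the sources used here. Of 14 neutrophil markers, 4 passed the filter and none was called.

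C1qa, C1qb and C1qc lie side by side on the minus strand of chromosome 4, C1qb at 136880129 to 136886187, C1qc at 136889804 to 136893065 and C1qa at 136895917 to 136898803. No C1q chain was called. C1qa, the most abundant, had 21.5, 32.8 and 39.6 CPM as lowest, median and highest in air and 22.8, 30.6 and 45.4 CPM in smoke, and the log2 fold change was -0.04 (SE 0.10, 95% interval -0.23 to 0.16, edgeR adjusted p = 0.908). The highest of all C1qa values was in smoke replicate 10, and the lowest in air replicate 10.

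C1qb was lower in 11 of 13 smoke samples than the air mean. It had 4.52, 6.91 and 9.90 CPM as lowest, median and highest in air and 3.51, 5.32 and 9.90 CPM in smoke. The log2 fold change was -0.30 (SE 0.16, 95% interval -0.63 to 0.02), and edgeR's adjusted p was 0.354 (unadjusted 0.0633). The groups overlapped: 4 smoke samples lay below the lowest air sample, and smoke replicate 6 reached the air maximum. C1qc also had 11 of 13 smoke samples below the air mean, at 3.02, 8.61 and 12.9 CPM in air and 3.37, 7.32 and 11.3 CPM in smoke, and its log2 fold change was -0.24 (SE 0.18, edgeR adjusted p = 0.559). The intervals of C1qb and C1qc include 0 as well as a fall of more than 0.5 on the log2 scale.

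**Figure D2:**
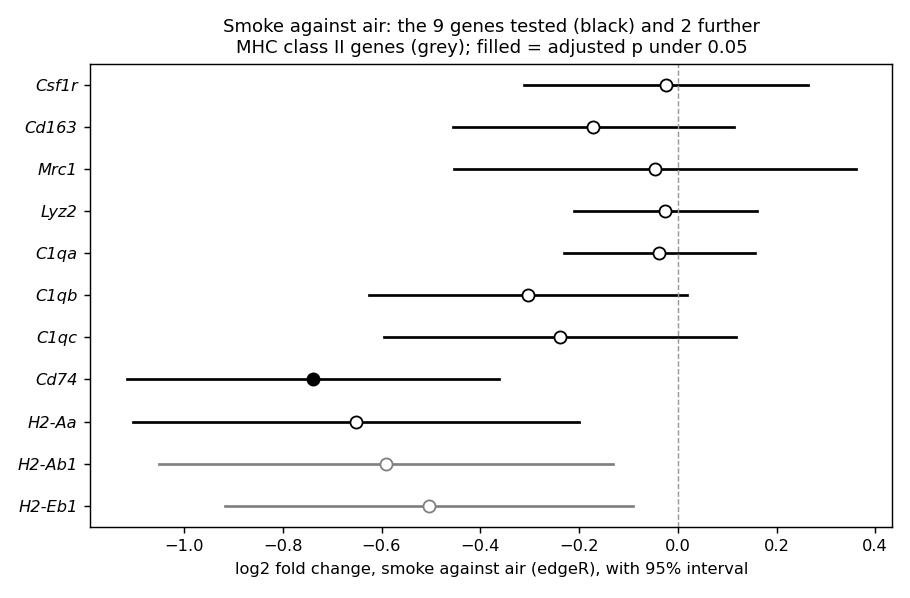
Log2 fold change of smoke against air (x axis) for the 9 genes tested (black) and H2-Ab1 and H2-Eb1 (grey), with 95% intervals from edgeR's quasi-likelihood fit and a filled point for an adjusted p under 0.05. The intervals of Cd74 and H2-Aa lie below 0, and those of the other 7 black points include it.

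Cd74, the invariant chain, lies on chromosome 18 (60803848 to 60812652, plus strand). Its air values were 2.68 CPM at the lowest, 5.35 at the median and 8.52 at the highest, and its smoke values 1.85, 3.19 and 4.79 CPM. All 13 smoke samples lay below the air mean, 4 of them below every air sample, and 6 of 11 air samples lay above every smoke sample. The log2 fold change was -0.74 (SE 0.19, 95% interval -1.12 to -0.36, edgeR adjusted p = 0.0273). These levels rest on 8 to 31 counts per air sample and 7 to 16 per smoke sample, and 10 air and 8 smoke samples were over the filter's level. The call was lost without air replicate 7 (log2 fold change -0.65, adjusted p = 0.063), air replicate 9 (-0.70, 0.0503) or smoke replicate 9 (-0.68, 0.0539), and with no filter on low counts (-0.75, 0.0584), the replicate number as a block (-0.76, 0.0533) or the Hbb-bs level as a covariate (-0.71, 0.22). Over all 24 leave-one-out fits its adjusted p ranged from 0.0169 to 0.063, and with a minimum count of 20 the gene was not tested.

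H2-Aa encodes the alpha chain of the class II molecule H2-A, on chromosome 17 (34282744 to 34287823, minus strand). Its air values were 2.92, 6.69 and 13.1 CPM as lowest, median and highest, and its smoke values 1.73, 3.93 and 8.46 CPM. In smoke 12 of 13 samples were below the air mean, but the ranges overlapped widely. The log2 fold change was -0.65 (SE 0.22, 95% interval -1.10 to -0.20), and the edgeR adjusted p of 0.119 did not pass the threshold. The highest air value belonged to air replicate 1, with 47 counts, and without it the log2 fold change was -0.52 (adjusted p = 0.225).

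The other chains of the classical class II molecules had values of the same sign. H2-Ab1, the beta chain partner of H2-Aa, had 4.89 ± 1.46 CPM in air (SD, n = 11) and 3.24 ± 1.49 in smoke (SD, n = 13), which gave -0.59 on the log2 scale (SE 0.23, adjusted p = 0.175 in edgeR). H2-Eb1, the beta chain of H2-E, had 4.203 ± 1.56 and 2.94 ± 0.93 CPM, and the log2 fold change was estimated at -0.50 (SE 0.20, edgeR adjusted p = 0.204); Gm20513 overlaps it from the opposite strand. In both, 11 of 13 smoke samples lay below the air mean, and neither passed the threshold. The list of 24 other MHC class II pathway genes had 12 that passed the filter and 0 called, with 6 negative log2 fold changes, 6 positive ones, a median of 0.01 and 2 genes, both lower, at an unadjusted p under 0.05. Outside the class II chains, the most abundant of this list were Ctsb and Ctsl, lysosomal proteases, with log2 fold changes of -0.04 and 0.10, and Nfyb, a subunit of the Y-box factor NF-Y, at -0.02. Ciita, the class II master activator, did not pass the filter. The list's counts stand beside 1.92% called and 15.5% at an unadjusted p under 0.05 over all genes tested.

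Class II promoters are known for a conserved Y box bound by NF-Y. The 250 bases before the start of H2-Aa and of H2-Eb1 are shown because they hold the Y-box letters CTGATTGG, printed in capitals (RefSeq, GRCm38.p6, 5′ to 3′ in the direction of the gene). The H2-Aa window is chr17:34287824-34288073 on the minus strand, and its motif begins 51 bases before the start. The H2-Eb1 window is chr17:34305617-34305866 on the plus strand, and its motif begins 62 bases before the start.
H2-Aa: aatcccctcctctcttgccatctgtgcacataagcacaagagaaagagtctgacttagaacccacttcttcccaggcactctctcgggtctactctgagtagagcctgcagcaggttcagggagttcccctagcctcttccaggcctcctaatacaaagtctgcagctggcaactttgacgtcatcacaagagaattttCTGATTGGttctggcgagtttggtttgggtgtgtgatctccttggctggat
H2-Eb1: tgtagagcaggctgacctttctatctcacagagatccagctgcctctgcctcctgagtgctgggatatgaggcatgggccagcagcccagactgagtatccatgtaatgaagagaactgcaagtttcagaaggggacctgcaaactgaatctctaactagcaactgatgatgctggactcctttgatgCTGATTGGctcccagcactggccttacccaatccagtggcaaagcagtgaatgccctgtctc
Searched on both strands, CTGATTGG was found in 1258 of 32851 windows of this length (3.83%). It was in 1 of the 7 windows available among the 10 genes, that of H2-Aa, and in 3 of 17 among the other class II pathway genes, those of H2-Eb1, H2-Eb2 and H2-Oa. Windows for Csf1r, C1qa and Cd74 were not used here. A match describes these letters and not a bound site.

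As a description, with no test because the pair was singled out after the values had been seen, Cd74 and H2-Aa were set against each of the 7 other tested genes. The mean log2 ratio of Cd74 to these genes, smoke minus air, ran from -0.61 (to Csf1r) to -0.33 (to C1qb). That of H2-Aa ran from -0.60 (to Csf1r) to -0.32 (to C1qb).

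Markers of other cells that can carry class II, or that mark blood, moved as follows. Of 9 B cell markers, 1 passed the filter, Ighm, the heavy chain of IgM, which fell from 64.1 ± 47.2 CPM in air (SD, n = 11) to 33.7 ± 10.0 in smoke (SD, n = 13; log2 fold change -0.92, edgeR adjusted p = 0.0333). Leaving out any of 7 samples, air replicates 1, 9 and 11 or smoke replicates 5, 8, 9 and 12, ended that call, with adjusted p up to 0.0729. So did limma voom (log2 fold change -0.70, adjusted p = 0.112), robust dispersion (-0.92, 0.11) and the Hbb-bs covariate (-0.96, 0.243). The summed B cell markers ranged from 31.1 to 178 CPM in air and from 23.1 to 54.3 in smoke. Most of that sum was Ighm itself, so it is not a separate result. Of the 9 markers 6 had a median count of 0, and Cd79a had 4 counts over all air samples and 2 over all smoke samples. Of 10 dendritic cell markers 1, Zbtb46, passed the filter, and none was called. Their sum ranged from 17.8 to 29.1 CPM in air and from 13.7 to 34.3 in smoke. Most of that sum was Zbtb46, with means of 18.9 CPM in air and 16.1 in smoke. Within groups, the Cd74 level correlated with Ighm at r = 0.31 and rho = 0.44 (permutation, adjusted p = 0.351 and 0.172, over 8 relations), r = 0.15 without 2 samples, and the H2-Aa level at r = 0.15 (adjusted p = 0.638). No fit with the B cell or dendritic cell markers as a covariate was run.

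Some blood genes also differed. Of 7 blood markers 5 passed the filter and 3 fell: Hbb-bs (log2 fold change -0.84, edgeR adjusted p = 0.0142), Hbb-bt (-0.73, 0.0229) and Hba-a2 (-0.67, 0.0369; lost in 10 of 24 leave-one-out fits and with DESeq2, at 0.0536). With robust dispersion none of the 3 was called (adjusted p from 0.0691 to 0.112). The remaining tested blood markers, Hba-a1 (-0.14, edgeR adjusted p = 0.548) and Alas2 (-0.755, 0.0672), were not called. In air Hba-a1 had 225 CPM and Hba-a2 66.9, and how reads were split between them is not given in the sources used here. The blood list summed to 488 to 1450 CPM in air and to 369 to 884 CPM in smoke. With the log2 level of Hbb-bs as a covariate, chosen after the data had been seen, Cd74 stood at -0.71 (SE 0.24, adjusted p = 0.22), H2-Aa at -0.28 (SE 0.28, adjusted p = 0.78), H2-Ab1 at -0.34 and H2-Eb1 at -0.16. In that fit 25 genes in all were called. The Cd74 level correlated with Hbb-bs within groups at r = 0.06 and the H2-Aa level at r = 0.35, over 24 group-centred samples (permutation p adjusted over 8 relations, 0.774 and 0.351). Among the markers of nerve sheath and fat, Ncmap (log2 fold change 1.77) and Prx (1.48) rose and Plin4 (-0.25) fell, with edgeR adjusted p from 0.0242 to 0.0481. The Prx call was lost in 9 of 24 leave-one-out fits and the Plin4 call in 15. With the Hbb-bs covariate none of these 3 was called (adjusted p = 0.142 for Ncmap, 0.126 for Prx and 0.543 for Plin4). Ncmap and Prx were also lost with limma voom and robust dispersion, and Plin4 with upper-quartile factors (0.0512) and a minimum count of 20 (0.0518). No gene was called among the markers of T and NK cells (1 of 12 tested), mast cells (1 of 8), endothelium (10 of 10) or satellite cells (4 of 6). Fibroblast markers (10 of 10 tested) gave no call either, but 8 of 10 had negative log2 fold changes, with a median of -0.20, beside -0.17 for the 9 genes tested. At an unadjusted p under 0.05 stood 5 of them, all lower: Pi16 (-0.39), Col1a1 (-0.37), Col3a1 (-0.32), Dpt (-0.29) and Ly6a (-0.16), named after their values were seen. The 10 fibroblast markers summed to 1940 to 2560 CPM in air and to 1960 to 2820 in smoke. Most of that sum was Gsn, with means of 1926 CPM in air and 2011 in smoke and a log2 fold change of 0.06. The sum therefore says little about the other fibroblast markers. None of the 10 had a median count of 0, and their part in the values of the 9 genes was not tested.

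**Figure D3:**
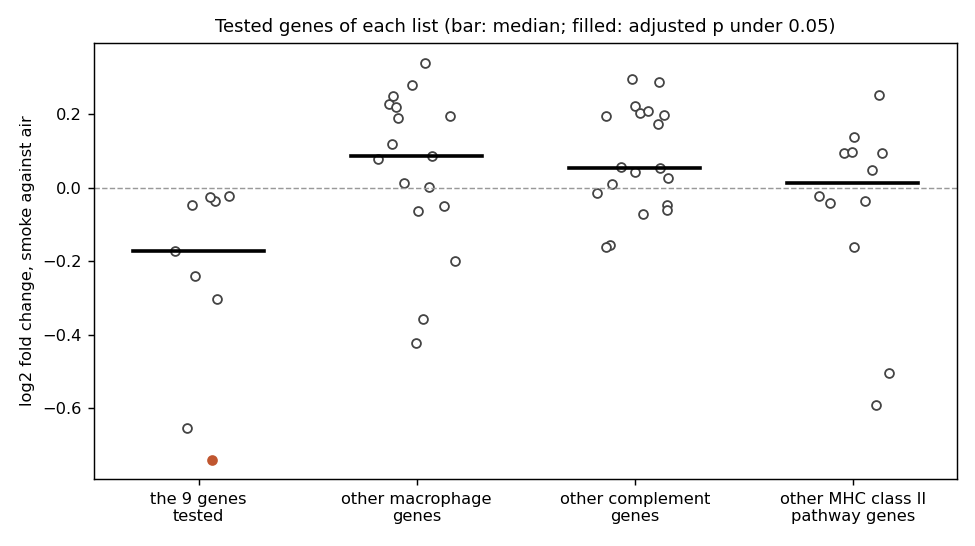
Log2 fold change of smoke against air (y axis) for each tested gene of the 10 genes and of the related lists, 1 point per gene, with a bar at each median and a filled point for an adjusted p under 0.05. The 9 tested genes all lie below 0, and the related lists have medians of 0.09, 0.05 and 0.01.

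The wider macrophage list gave no call. Of 46 other macrophage genes 17 passed the filter and none was called; 5 had negative and 12 positive log2 fold changes, with a median of 0.09. An unadjusted p under 0.05 was found for 3, 1 lower and 2 higher. Over all genes tested 1.92% were called and 15.5% had an unadjusted p under 0.05. The lack of a call among 17 genes therefore says little about this list. The most abundant were Gas6, the bridging ligand for clearance of dying cells (78.4 and 91.6 CPM, log2 fold change 0.22, edgeR adjusted p = 0.215), its receptor Mertk (0.00, 0.997) and the platelet factor gene Pf4 (-0.05, 0.908). Ccl6, a chemokine of myeloid cells, had 13 of 13 smoke samples below the air mean, with means of 14.6 and 10.9 CPM and a difference of -0.42 on the log2 scale (SE 0.14, adjusted p = 0.109 in edgeR).

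Complement genes beyond C1q gave no call either. Of 44 such genes 19 passed the filter and 0 were called, with 13 positive and 6 negative log2 fold changes and a median of 0.05. An unadjusted p under 0.05 was found for 4, all higher, beside 15.5% of all genes tested. With 1.92% of all genes called, the lack of a call among 19 genes says little about this list. Cfd, the fat-derived protease factor D, had 841 CPM in air and 1026 in smoke (log2 fold change 0.29, edgeR adjusted p = 0.285). C4b, the component that C1 cleaves, had a log2 fold change of 0.30 (adjusted p = 0.257), and Lrp1, a receptor that takes up C1q-coated material, 0.21 (0.156). C1qbp, a mitochondrial protein that binds C1q, was at 0.06 (0.727).

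How the genes varied within a group was compared with the variation that counting alone gives. In air, the coefficient of variation (CV, the SD as a percent of the mean) of Lyz2 was 17.9% against 6.71% from counting, and that of C1qa 16.1% against 9.53%. C1qb had 23.6% against 20.7% in air and 30.1% against 23.3% in smoke. C1qc had 33.4% against 18.5% in air and 28.3% against 20.2% in smoke. For Cd74 the CV was 32% against 23.6% in air and 28.3% against 30.9% in smoke. H2-Aa had the widest spread beyond counting among the class II pair, 40.0% against 20.4% in air and 44.2% against 26.0% in smoke. Air replicate 10 had the lowest air value of Csf1r, Cd163, Mrc1, C1qa, C1qb and H2-Aa.

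**Figure D4:**
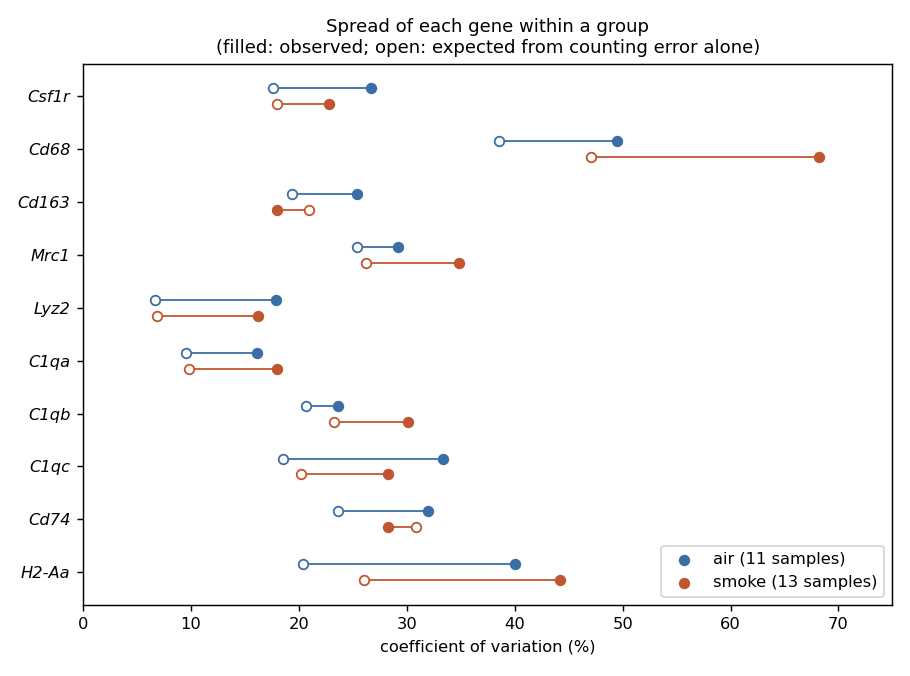
Coefficient of variation in percent (x axis) of each gene within air (11 samples) and smoke (13 samples), with filled points for the observed spread and open points for the spread from counting error alone. The gap is wide for Lyz2 and H2-Aa, and for Cd163 and Cd74 in smoke the observed point lies below the counting one.

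Co-variation among the 9 tested genes was measured as the correlation of group-centred log2 CPM over 24 samples, for 36 pairs. The pairs share libraries, so depth and tissue composition enter each of them. Of these, 2 pairs passed at an adjusted p under 0.05. Csf1r and C1qa had r = 0.72 and rho = 0.74 (permutation p = 0.0001, adjusted 0.0036 for both), r = 0.71 without the 2 samples farthest from the Csf1r median, 0.70 in air and 0.75 in smoke. Csf1r and Lyz2 had r = 0.62 (permutation, adjusted p = 0.0333) and rho = 0.59 (adjusted 0.0544), and r = 0.46 without 2 samples. Of the 36 pairs 29 were positive, and the median r was 0.29.

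No correlation among the C1q chains passed at an adjusted p under 0.05, and the part of depth in this was not tested. C1qa and C1qb had r = -0.10, C1qa and C1qc r = 0.05 and C1qb and C1qc r = -0.14. Cd74 and H2-Aa had r = -0.10 (permutation, adjusted p = 0.788). Among 8 relations added after the data had been seen, none passed. H2-Aa had r = 0.16 with its partner chain H2-Ab1 (-0.007 without 2 samples) and r = 0.54 with H2-Eb1 (permutation, adjusted p = 0.638 and 0.0631). Cd74 had r = 0.30 with H2-Ab1 and r = 0.08 with H2-Eb1 (permutation, adjusted p = 0.351 and 0.774).

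**Figure D5:**
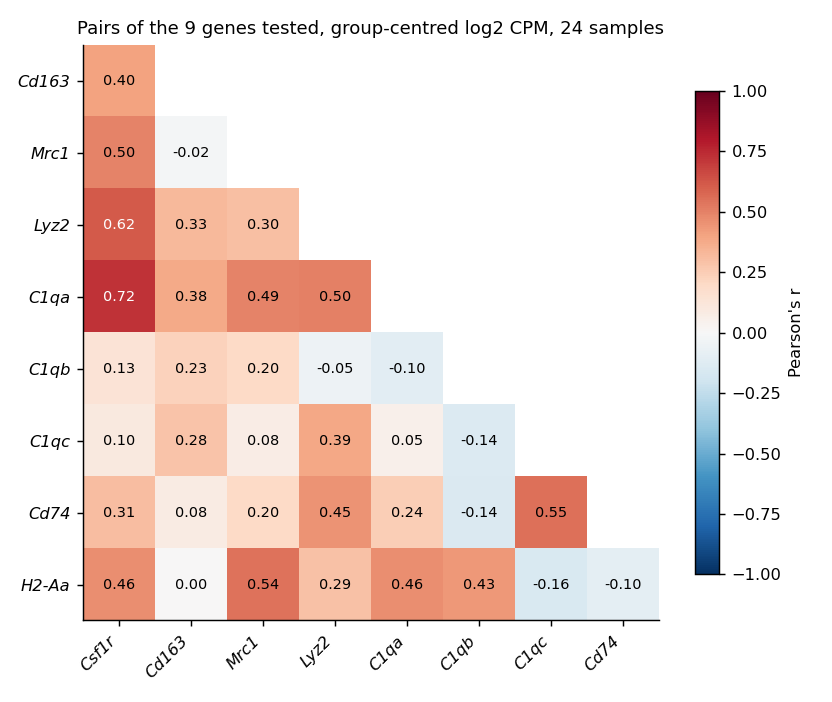
Pearson r of group-centred log2 CPM for each pair of the 9 tested genes over 24 samples, shown as a colour in a square grid. The largest values join Csf1r with C1qa (0.72) and Csf1r with Lyz2 (0.62), and the squares among the C1q chains lie between -0.14 and 0.05.

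The genes whose levels were most like the mean profile of the 9 tested genes, by Pearson r over 24 group-centred samples and given as a description, were Ifitm3 (0.73), Tgfbi (0.72), Timp2 (0.72), Pcolce (0.71), Ctsb (0.70), Retnla (0.69), Rpl3 (0.67), Arhgap15 (0.67), C3 (0.66) and Rack1 (0.66). Of the 10, 1 was called: Retnla, which encodes the secreted protein RELMα of alternatively activated macrophages and fat, fell from 25.4 ± 6.84 CPM in air (SD, n = 11) to 16.4 ± 4.76 in smoke (SD, n = 13). Its log2 fold change was -0.64 (SE 0.15, edgeR adjusted p = 0.0142), and 12 of 13 smoke samples lay below the air mean. The call was lost with Hbb-bs as a covariate (-0.42, adjusted p = 0.373), the highest of the values under other settings, which began at 0.000845. Ifitm3, an interferon-induced membrane protein, stood at -0.35 on the log2 scale (adjusted p = 0.111 in edgeR), and the other 8 lay between -0.04 and 0.20.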

How the data were processed

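Plantaris RNA of 24 samples was read from transcript 3′ ends. The authors deposited raw read counts per gene in whole numbers, 1 column per sample, per the file headers. The submitters' processing notes name mm9, STAR and DESeq2, with no role or version. Whether counting used strand is not given in the sources used here. Gene IDs were matched to GENCODE M21 (GRCm38), with a symbol for 47224 of 47643 (99.1%), and coordinates are those of that annotation.

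The counts were tested with edgeR 4.0.16 (R 4.3.3, limma 3.58.1): TMM scaling, edgeR's expression filter (minimum count 10), a quasi-likelihood F-test of smoke against air and Benjamini-Hochberg adjustment over 10159 genes. Cd68, under the filter, was tested by permuting CPM. Correlations used log2 CPM with a prior count of 2. Of 133 pairs of libraries within a group, none was alike enough to be 1 library deposited more than once; pairs between the groups were not compared.

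The 10 genes, the lists and the tests were chosen with earlier results of these data known. The text names the 10 genes, the 3 most abundant and 2 smallest-p genes of each related list, any called gene of the lists and the 10 genes most like the mean profile. Some marker results are not reported here. The markers listed were those of neutrophils, dendritic, T, B and mast cells, blood, fibroblasts, endothelium, fat, satellite cells, nerve sheath and myofibres. On simulated counts of 9960 genes for this comparison, 166 of 176 calls were changed genes, and 100% of 2-fold and 73.4% of 1.5-fold changes were recovered. The changed genes were drawn at random from genes of all levels, and the counts followed the model that the test assumes. These shares therefore do not say how often a change in the 10 genes, most of them at low level, would be called. Alternatives included DESeq2 1.42.0, limma voom, other scalings and filters, a replicate block and leaving out each sample.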

Additional observations from a re-analysis of the deposited data

How the results depend on the processing

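Cd74 kept its sign in every fit run. The count of the 10 genes called, and of those called lower, was 0 in place of 1 with no expression filter, with a minimum count of 20, with the replicate block and with Hbb-bs as a covariate, and 0 to 1 over the 24 leave-one-out fits. The replicate numbers do not pair the samples (mean correlation of same-numbered samples -0.00592 over 11 pairs, 0.00114 over the other 132), so the block, with Cd74 at -0.76 (adjusted p = 0.0533), Retnla at -0.64 (0.0581) and Timp2 reversed at -0.033, is given only as a check. The block also ended the calls of Ighm (-0.70, 0.127), Hbb-bt (-0.69, 0.0702), Prx (0.99, 0.098) and Ncmap (1.31, 0.0808). Over all genes, DESeq2 called 318 (208 lower), and the Hbb-bs covariate left 25 (19 lower, 6 higher). Leaving out each sample gave 141 to 254 calls, 92 to 163 lower and 47 to 103 higher (47 without air replicate 3). The related lists had 0 calls in every fit. With robust dispersion the calls of Ighm, Hba-a2, Hbb-bs, Hbb-bt, Prx and Ncmap were lost (adjusted p from 0.0691 to 0.112), and with voom those of Ighm (0.112), Prx (0.224) and Ncmap (0.165).

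Log2 fold changes near 0 changed sign. With Hbb-bs as a covariate they were Csf1r 0.12, Mrc1 0.16, C1qa 0.10, Lyz2 0.045, Pf4 0.079, Ctsb 0.0043, Nfyb 0.011, Tgfbi 0.037, Pcolce 0.024 and Rpl3 0.052; the cause was not tested. Mertk was -0.0085 with no filter and -0.0047 with DESeq2, and Pcolce 0.0001 with voom. Leave-one-out ranges that cross 0 were those of Csf1r (-0.092 to 0.059), Mrc1 (-0.124 to 0.043), Lyz2 (-0.066 to 0.006), Mertk (-0.065 to 0.108), Tgfbi (-0.082 to 0.0094), Timp2 (-0.031 to 0.044), Pcolce (-0.046 to 0.045) and Rpl3 (-0.062 to 0.0097). Other ranges were -0.80 to -0.65 for Cd74, -0.75 to -0.52 for H2-Aa and -0.826 to -0.381 CPM for Cd68.

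Pairs of genes passing the correlation test numbered 0 in air alone and 1 in smoke alone, with fewer samples in each. Reversed within 1 group were C1qa with C1qb (0.28), Cd74 with H2-Aa (0.11), Cd163 with Mrc1 (0.33) and C1qb with Cd74 (0.038) in air, and C1qa with C1qc (-0.033) and Csf1r with C1qb (-0.19) in smoke. Depth limits Cd68 most, at no more than 12 counts per sample. The planned pair of Lyz2 and Cd68 was not run, since Cd68 did not pass the filter.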
